A study of Mus musculus with 2 samples.

Results

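The epidermal growth factor (EGF) receptor family and its ligands were followed in newborn mouse tooth and skin. The members were 10 genes chosen by name: the ligands Egf, Tgfa, Hbegf, Areg, Ereg and Btc, the neuregulin Nrg1, and the receptors Egfr, Erbb2 and Erbb4. They made up 10 of the 24323 named genes on the array and were read by 13 of its 55675 probes. RNA came from the tooth and from the skin of wild-type mice, both labelled postnatal day 0, and each tissue was hybridised to 1 single-colour array. The study's methods place the same material 1 day later, and the labels were followed here. The methods name C57BL/6J as the wild-type strain, and neither source gives the number of animals behind an array. No treatment or altered allele entered either group, and each sample was a whole tissue with all of its cell types. With 1 array per tissue there was no replicate, so no difference was tested and no p-value was computed.

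Ligands of this family are made as membrane-anchored precursors that are cut free by proteases and then bind receptors on the same or neighbouring cells. EGF, transforming growth factor alpha, amphiregulin, epiregulin, betacellulin and heparin-binding EGF-like growth factor bind the EGF receptor, whereas neuregulins bind ErbB3 and ErbB4, and ErbB2 has no known ligand of its own and acts as a partner in receptor pairs. In skin the pathway is known for its role in keratinocyte growth and hair follicle development, and EGF has long been known to hasten tooth eruption in newborn mice.

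The 250 bases before the annotated start are shown for 4 genes. Areg, Epgn and Btc lie in the same stretch of chromosome 5 and gave a signal well above background in skin only, whereas Egfr was well above background in both tissues. Sequences and positions are those of RefSeq on GRCm38.p6, each printed 5′ to 3′ on the strand of its gene, and capitals mark matches to the motifs named after them, other than the short CRE core TGACG. The windows are chr5:91139349-91139598 for Areg, chr5:91027267-91027516 for Epgn and chr5:91402995-91403244 (reverse strand) for Btc. The Egfr window is chr11:16751953-16752202.
Areg: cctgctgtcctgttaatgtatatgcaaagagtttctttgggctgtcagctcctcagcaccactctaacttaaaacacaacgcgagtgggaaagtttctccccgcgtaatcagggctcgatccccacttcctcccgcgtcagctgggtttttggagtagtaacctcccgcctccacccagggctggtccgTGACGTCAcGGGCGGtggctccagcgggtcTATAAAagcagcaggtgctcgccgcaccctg
Epgn: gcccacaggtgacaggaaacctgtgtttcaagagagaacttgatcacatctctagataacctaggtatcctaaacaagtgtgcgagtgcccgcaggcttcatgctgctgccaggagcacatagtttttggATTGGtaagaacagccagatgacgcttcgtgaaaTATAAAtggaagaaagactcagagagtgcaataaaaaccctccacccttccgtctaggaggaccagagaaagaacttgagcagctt
Btc: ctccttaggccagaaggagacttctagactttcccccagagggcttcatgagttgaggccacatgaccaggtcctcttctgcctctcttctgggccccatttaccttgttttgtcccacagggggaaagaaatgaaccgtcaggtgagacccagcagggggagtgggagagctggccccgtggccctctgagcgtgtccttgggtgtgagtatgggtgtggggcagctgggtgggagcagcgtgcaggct
Egfr: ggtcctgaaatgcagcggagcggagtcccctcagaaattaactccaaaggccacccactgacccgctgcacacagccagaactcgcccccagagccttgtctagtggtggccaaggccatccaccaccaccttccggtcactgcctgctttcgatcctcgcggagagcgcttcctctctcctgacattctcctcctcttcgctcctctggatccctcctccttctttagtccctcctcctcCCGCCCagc
In all, 6 motifs were searched on both strands. They were the letters TATAAA of a TATA box, the letters TGACGTCA of a full cyclic AMP response element (CRE), the letters TGACG of its short core, which the full element contains on both strands, the letters TGANTCA of an AP-1 site, the letters CCAAT of the box so named, and the letters GGGCGG of a GC box. Areg held TATAAA with its first letter 31 bases before the start, GGGCGG at 52 and TGACGTCA at 61. Of 32851 mouse promoter windows of the same length, 12.4% held TATAAA, 32.7% held GGGCGG and 1.55% held TGACGTCA. Epgn held TATAAA at 86 and CCAAT on the other strand at 120, a motif found in 33.8% of the windows. Egfr held GGGCGG on the other strand at 9. The core TGACG was found in 17.8% of the windows. Areg held it at 58 and 61 within the full element and, on the other strand, at 115. Epgn held it at 101, and Btc held it on the other strand at 113. TGACG was the only motif of the 6 found in Btc, and Egfr did not hold it. TGANTCA, which 6.75% of all windows held, was in none of the 4. GC content was 57.2% for Areg, 46.8% for Epgn, 59.6% for Btc and 60.8% for Egfr, against a median of 52.4% over all windows. These are matches of letters, not sites known to be bound. The tables used held such a window for 7 of the 10 members, all but Hbegf, Ereg and Nrg1.

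Areg, Ereg and Btc formed the clearest contrast. All were well above background in skin and none was in tooth. Areg, which encodes amphiregulin, a heparin-binding keratinocyte growth factor, gave an intensity of 11.6 ± 4.32 in tooth and 196 ± 20.2 in skin. The errors of single spots are those estimated by the extraction software and leave out variation between animals. Relative to the 75th percentile of each array (the zero of the scaled log2 values), the level of Areg was -5.20 in tooth and -0.49 in skin. The tooth value was below the lowest signal called well above background on that array (-4.52), so the fold is a bound taken over that lowest signal. With this scaling skin exceeded tooth at least 16.3-fold. Lower abundance in whole tissue can mean fewer cells that make a transcript or less of it per cell, and bulk RNA cannot tell these apart.

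Ereg encodes epiregulin, a ligand that binds both the EGF receptor and ErbB4. Its intensity was 9.22 ± 4.86 in tooth and 305.8 ± 31.0 in skin, or -5.54 and 0.15 on the scaled log2 scale, and it was at least 25.3-fold higher in skin. Btc encodes betacellulin, also a ligand of both receptors. Its intensity was 6.96 ± 3.90 in tooth and 130.3 ± 13.7 in skin (-5.94 and -1.08, scaled log2), and it was at least 10.8-fold higher in skin. Each of these bounds holds only for the scaling used. With spike-in scaling the log2 bounds were 3.40 for Areg, 4.04 for Ereg and 2.81 for Btc. The bounds were at least 2-fold under every alternative that gave them. Another background correction (normexp) lowered them most, to log2 bounds of 2.30 for Areg, 2.69 for Ereg and 1.93 for Btc. It added an offset of 50 to each intensity, which by construction draws differences of dim probes toward 0.

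**Figure D1:**
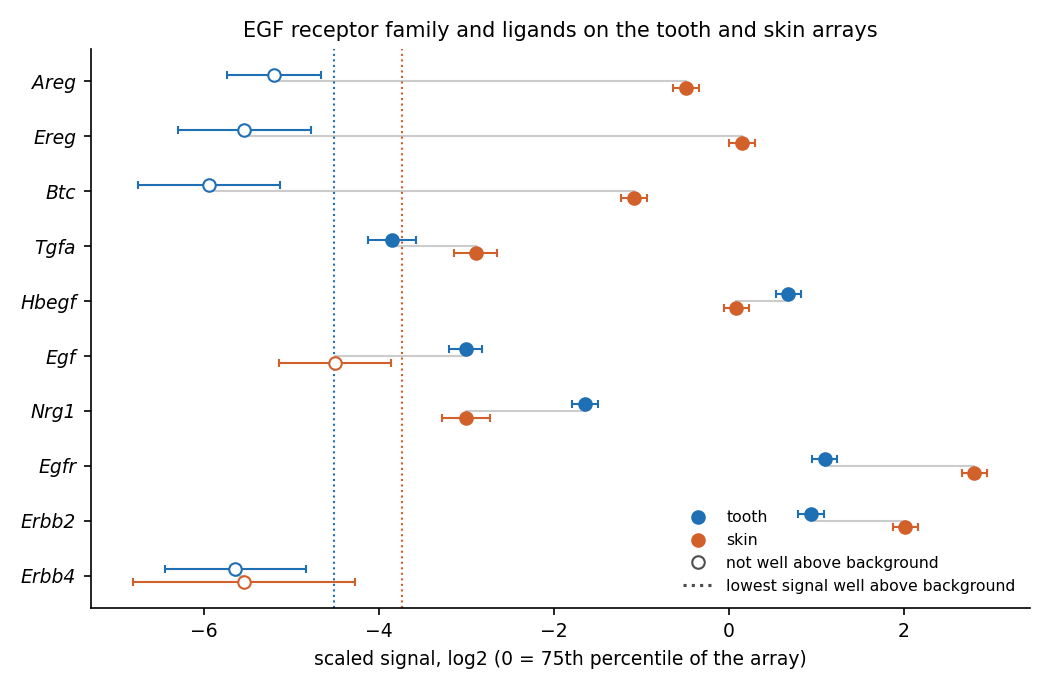
Scaled log2 signal (x axis, 0 is the 75th percentile of the array) of the representative probe of each of the 10 genes, by tissue (1 array each); bars are the error estimated by the extraction software, open points were not well above background, and dotted lines mark the lowest signal well above background on each array. Areg, Ereg and Btc are open in tooth and filled in skin, Egf is open in skin only, and Erbb4 is open in both.

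Tgfa, which encodes transforming growth factor alpha, a ligand needed for normal hair and whisker shape, was dim in both tissues. After outlier spots were removed it was read by 8 tooth spots and 10 skin spots of the same probe. The tooth spots ranged from -4.52 to -3.46 with a median of -3.81, and the skin spots from -3.36 to -2.37 with a median of -2.89 (scaled log2). These ranges did not overlap, and the mean difference was 0.96 ± 0.37 (software error), or 1.94-fold higher in skin, just short of 2-fold. Before scaling, however, the intensities overlapped, from 18.6 to 39.0 in tooth and from 26.9 to 53.5 in skin. The highest tooth spot was among the 2 removed as outliers, and with it kept the tooth range reached -3.30 and overlapped that of skin. Spots of 1 probe read the same labelled RNA, so their spread is technical.

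Hbegf and Egf had higher values in tooth. Hbegf encodes the heparin-binding ligand, an early product of wounded and stretched epithelia. Its intensity was 684 ± 68.5 in tooth and 293 ± 29.6 in skin, or 0.68 and 0.08 on the scaled log2 scale. The difference of -0.59 ± 0.21 was 1.51-fold and below 2-fold, but reached -1.22 when the arrays were scaled to spike-in transcripts.

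Egf, the founding ligand of the family, is a known product of salivary gland and kidney. Its probe was well above background in 9 of 9 tooth spots and in 0 of 10 skin spots. Tooth spots ranged from -3.42 to -2.73 with a median of -3.02, and skin spots from -5.51 to -3.76 with a median of -4.46 (scaled log2), without overlap. Mean intensities were 53.6 ± 7.32 in tooth (SD of spots, n = 9 spots) and 12.9 ± 4.36 in skin (SD of spots, n = 10 spots). The difference as measured was -1.49, and against the lowest signal well above background in skin Egf was at least 1.65-fold higher in tooth. After normexp correction the difference was -0.10 and no bound remained. The offset of 50 in that correction was close to the tooth signal and above the skin signal, so a smaller difference follows by construction. The size of the Egf difference thus depended on the processing.

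Nrg1 encodes neuregulin 1, the axonal ligand that Schwann cells depend on. It was read by 1 spot on each array. Its intensity was 137 ± 14.6 in tooth and 34.3 ± 6.56 in skin, and the scaled log2 levels were -1.65 and -3.01. The skin value was dim, beside a lowest intensity well above background of 20.8 on that array. The difference was -1.36 ± 0.32, or 2.57-fold higher in tooth. It fell short of 2-fold after normexp correction (-0.40). Markers of Schwann cells did not all lie on the same side. Of 5 listed, 4 were well above background in at least 1 tissue, with a median difference of 0.19 and a summed level of 8.39 in tooth and 6.69 in skin (multiples of the 75th percentile). Among them Mbp differed by -1.02 and Sox10, which melanocytes also use, by 3.21, and Cdh19 was not well above background in either tissue. The part of such cells in the Nrg1 value was not tested.

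Both receptors with a clear signal were brighter in skin. Egfr, the receptor shared by the 6 ligands of the EGF receptor, was read by 3 probes. The probe for transcript variant 1 covered 10 tooth spots from 0.92 to 1.21 and 9 skin spots from 2.72 to 2.91 (scaled log2), without overlap. Its mean intensity was 915 ± 55.4 in tooth (SD of spots, n = 10 spots) and 1931 ± 77.6 in skin (SD of spots, n = 9 spots). The difference was 1.71 ± 0.20, or 3.27-fold higher in skin. Both probes for transcript variant 2 lay on the same side, with intensities of 141 and 299 in tooth and skin for the first (1.72 ± 0.21, log2 difference) and 50.1 and 81.4 for the second (1.33 ± 0.25). Thus the 3 Egfr probes differed from each other by less than 2-fold in their tissue difference.

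Erbb2, the partner receptor without a ligand of its own, gave 10 tooth spots from 0.78 to 1.04 and 9 skin spots from 1.91 to 2.08 (scaled log2), again without overlap. Its mean intensity was 820 ± 38.0 in tooth (SD of spots, n = 10 spots) and 1117 ± 41.2 in skin (SD of spots, n = 9 spots). The difference was 1.08 ± 0.20, or 2.11-fold higher in skin. That lay close to the threshold, and the value fell to 0.93 after normexp correction, 0.83 after a median shift and 0.46 with spike-in scaling. Erbb4, a neuregulin receptor best known from heart, nerve and mammary gland, was not well above background in either tissue by its 2 probes, with intensities of 8.58 and 4.22 in tooth and 5.93 and 4.59 in skin. No fold was therefore given for it.

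**Figure D2:**
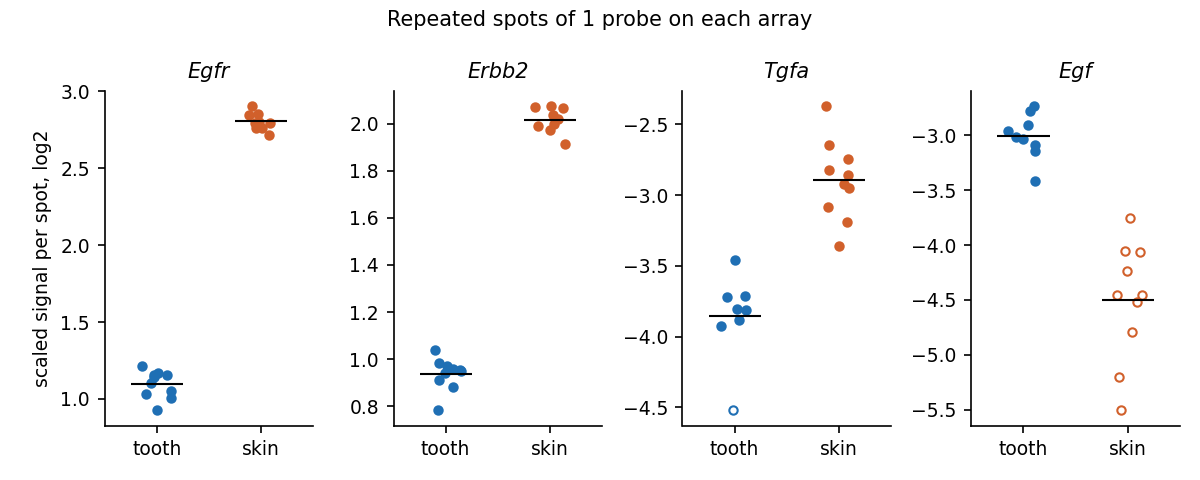
Scaled log2 signal of every spot kept for the 4 genes read by repeated spots of 1 probe, by tissue; lines are means, open points were not well above background, and each panel has its own y axis. Tooth and skin spots do not overlap in any of the 4 panels, with Egfr, Erbb2 and Tgfa higher in skin and Egf higher in tooth.

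Counted together, 9 of the 10 members were well above background somewhere, 5 on both arrays, 3 in skin only and 1 in tooth only. Across all 17409 named genes above background on at least 1 array, 4.25% were so in skin only and 8.03% in tooth only. Skin exceeded tooth by at least 2-fold in 5 of the 9 members (Areg, Ereg, Btc, Egfr and Erbb2), beside 14.2% of all named genes. Tooth exceeded skin to that extent in 2 (Egf and Nrg1), beside 15.5% of all named genes, and with dim values set to their bound only Nrg1 was left. The median difference was 1.08 over the 9 members and -0.04 over all named genes (quartiles -0.58 and 0.47). With 9 genes chosen by name, these shares describe the members and were not tested.

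The sizes of these differences depended on the scaling. The 75th percentile was 428 for tooth and 276 for skin (a ratio of 1.55), whereas 7 of 8 spike-in transcripts differed by less than 0.05 (log2) between the arrays. Scaling to the spike-ins moved the median of all genes by -0.62 and that of the members to 0.46. Under it 4 members passed 2-fold toward skin and 3 toward tooth, in place of 5 and 2. Over all named genes the split was 1573 and 5639 with spike-in scaling and 2020 and 3500 with a median shift, in place of 2466 and 2691. The 5 members well above background on both arrays kept their direction under every alternative. Bounds, as given for Areg, Ereg, Btc and Egf, could not change direction, since they were kept only toward the tissue with signal.

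**Figure D3:**
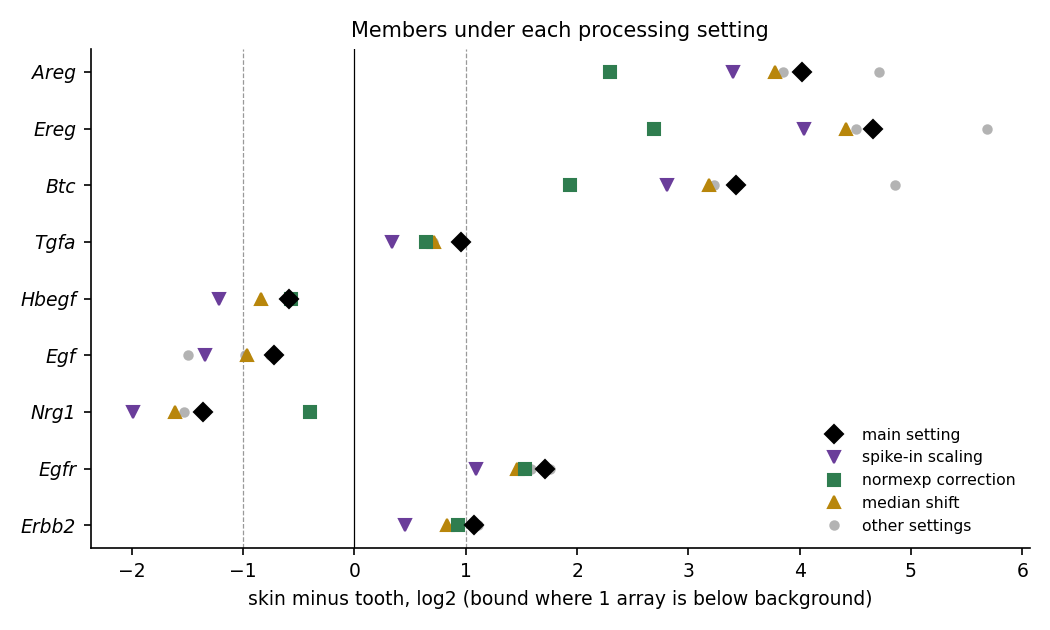
Difference skin minus tooth (log2, x axis) of the 9 members above background under each processing setting, given as a bound where 1 array was below background; dashed lines mark 2-fold. Areg, Ereg, Btc and Egfr stay beyond 2-fold in every setting drawn, whereas Erbb2, Nrg1, Egf and Hbegf lie beyond it in some settings only and Tgfa in none.

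Cell type markers showed how different the samples were. All 6 ameloblast markers were at least 2-fold higher in tooth, with a summed level of 2163 in tooth and 0.269 in skin (multiples of the 75th percentile), and all 6 markers of odontoblasts and bone were as well (351 and 0.677). All 5 suprabasal epidermis markers and all 5 hair follicle markers were at least 2-fold higher in skin, with summed levels of 6.002 and 3760 and of 2.43 and 763 in tooth and skin. Basal epithelium, a compartment in which Egfr is known to be abundant, was present in both. Its 5 markers had a median difference of 0.53 and summed levels of 610 in tooth and 1111 in skin, and Krt14 alone (1.19) passed 2-fold. Egfr differed by more than each of these 5 markers, at 1.71 against at most 1.19. The part of cell composition in the values of Egfr, Erbb2 and the 3 skin-only ligands was not tested.

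Areg, Ereg and Btc are neighbours in the genome, and so is Epgn, which encodes epigen, a further ligand of the EGF receptor. In mm9, the build of the probe positions in the files, their probes lay at chr5:91464119-91464178 for Epgn, chr5:91522553-91522612 for Ereg, chr5:91570090-91570149 for Areg and chr5:91786948-91787007 for Btc, a span of 323 kb. The intensity of Epgn was 19.7 in tooth and 152 in skin (-4.44 and -0.86, scaled log2). Skin alone was well above background. The dim tooth value lay just above the lowest signal called well above background on that array (-4.52). The 11.9-fold higher signal in skin was therefore the difference as measured (3.58 ± 0.37, log2), not a lower limit. It fell to 1.85 after normexp correction. All 4 ligand genes of the stretch were thus well above background in skin only.

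The neighbourhood was examined after these values had been seen. No other named gene of the array had a probe inside the stretch. Within 500 kb on either side there were 13 other named genes, of which 5 were well above background in at least 1 tissue. Rassf6 differed by 3.50, Pf4, a platelet chemokine, by 0.78, the metabolic enzyme gene Mthfd2l by -0.20 and Parm1 by -2.21, and the platelet chemokine Ppbp exceeded its skin signal in tooth by at least 1.70-fold. The neighbours thus lay on both sides. Between Epgn and Ereg, 3 adjacent probes for a long non-coding region on the reverse strand were all well above background in skin only. Their intensities were 13.0, 4.57 and 12.7 in tooth and 40.1, 28.6 and 28.7 in skin, and the bounds were at least 3.32-, 2.36- and 2.37-fold higher in skin. The skin values were close to the lowest intensity well above background on that array (20.8).

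**Figure D4:**
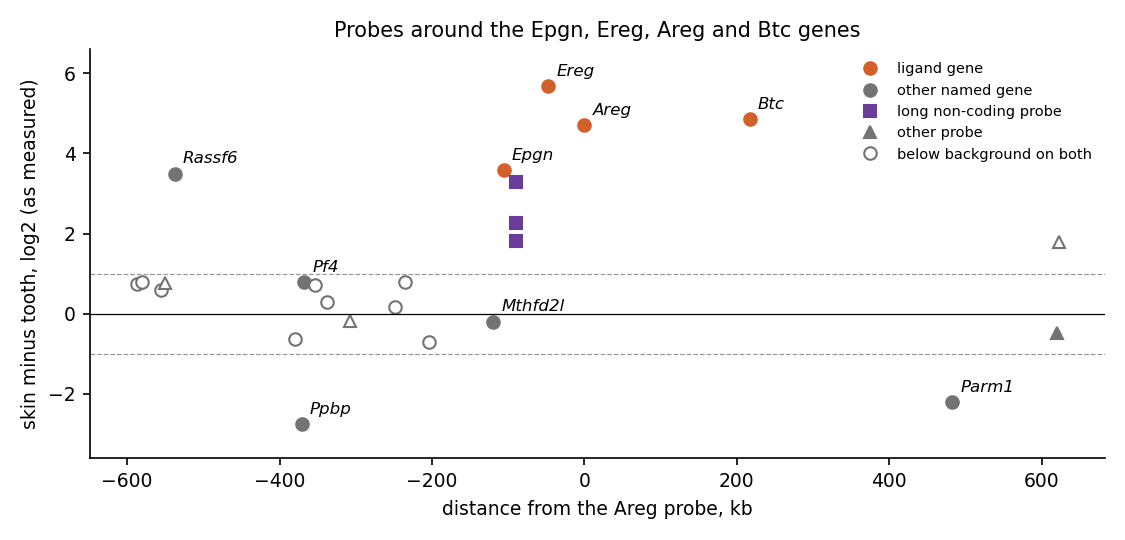
Difference skin minus tooth (log2, as measured) of each probe against its distance in kb from the Areg probe; circles are named genes, with the 4 ligand genes coloured, squares are long non-coding probes, triangles are other probes, and open symbols were not well above background in either tissue. The 4 ligand genes and the 3 long non-coding probes all lie above 1, whereas the other named genes lie on both sides of 0.

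The rest of the pathway was described by a list of 50 genes, of which 49 were detected well above background in at least 1 tissue. The exception was the neuregulin gene Nrg3. Skin was at least 2-fold above tooth in 12 (24.5%, beside 14.2% of all named genes) and tooth above skin in 3 (6.12%, beside 15.5%), and the median difference was 0.27. Spike-in scaling turned the median to -0.36 and gave 10 genes in skin and 7 in tooth. By role, the share beyond 2-fold in either direction ran from all 3 measured ligands to 2 of 21 adaptors and signalling enzymes. Over all named genes that share was 29.6%. Most roles held few genes, and differences between roles were not tested.

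Among the other ligands, Nrg4, which encodes neuregulin 4, went from an intensity of 4.23 in tooth to 128 in skin by its brightest probe, at least 10.6-fold higher. That log2 bound of 3.41 fell to 1.88 after normexp correction and to 1.79 with the mean over all its probes. Its other 2 probes were weaker, and neither tissue was well above background by 1 of them. Nrg2 differed by 1.07 ± 0.23, with intensities of 64.6 in tooth and 87.4 in skin. Its value fell to 0.82 with a median shift, 0.72 after normexp correction and 0.44 with spike-in scaling, and was 1.72 with the mean over both probes. Thus Nrg2 and Nrg4 lay on the opposite side from Nrg1. Erbb3, the neuregulin receptor with little kinase activity of its own, had an intensity of 9.27 in tooth against 119 in skin, at least 9.82-fold higher, and its log2 bound of 3.30 fell to 1.81 after normexp correction. Markers of melanocytes, a cell type that uses ErbB3, were at least 2-fold higher in skin in 5 of 5 cases, with summed levels of 2.30 in tooth and 173 in skin. Their part in the Erbb3 value was not tested.

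Ligand shedding genes mostly stayed within 2-fold. Adam17, the protease that releases most ligands of the EGF receptor, differed by 0.18 ± 0.24, and Adam10, which releases Egf and Btc, by -0.75 ± 0.20. Rhbdf2, which guides Adam17 to the cell surface, was the exception, at 475 in tooth against 1069 in skin, and differed by 1.80 ± 0.20. Its relative Rhbdf1 differed by 0.47 ± 0.20.

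The 21 adaptors and signalling enzymes were well above background on both arrays, and their median difference was -0.03. By the representative probe none was 2-fold higher in skin. Map2k1, which encodes the kinase MEK1, differed by -1.14 ± 0.20, and Pik3r1, a regulatory subunit of phosphoinositide 3-kinase, by -1.10 ± 0.21. The remaining 19 lay between -0.67 (Grb2) and 0.72 (Mapk3).

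Of 8 genes for receptor turnover and inhibition, 2 were at least 2-fold higher in skin. Lrig1, a membrane protein that promotes loss of EGF receptors and marks a hair follicle stem cell compartment, had an intensity of 176 in tooth against 2703 in skin, and differed by 4.57 ± 0.21. A second probe differed by 4.84. Lrig3 differed by 1.82 ± 0.20. Errfi1, a feedback inhibitor of the receptor kinase, differed by -0.01 ± 0.20, and the ubiquitin ligase gene Cbl by 0.03 ± 0.21.

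Genes known to respond to the pathway were divided. The immediate early genes Egr1 (789 in tooth and 3535 in skin, difference 2.80 ± 0.20) and Fos (308 and 916, difference 2.20 ± 0.21) were higher in skin, as were Dusp4 (2.33 ± 0.26) and Ier3 (1.12 ± 0.21). Fosl1, well above background in skin alone, was at least 3.50-fold higher there. Normexp correction lowered the log2 bound of Fosl1 from 1.81 to 1.02 and the difference of Dusp4 to 1.46. Ier3 fell short of 2-fold with a median shift (0.88), after normexp correction (0.94) and with spike-in scaling (0.501). Etv5 was higher in tooth (-1.32 ± 0.20). The remaining 6 stayed within 2-fold, among them Dusp6 (0.27 ± 0.20), Myc (0.17 ± 0.21), Ccnd1 (0.21 ± 0.20) and Etv4 (-0.33 ± 0.20). All of these genes are known to respond to other signals as well.

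**Figure D5:**
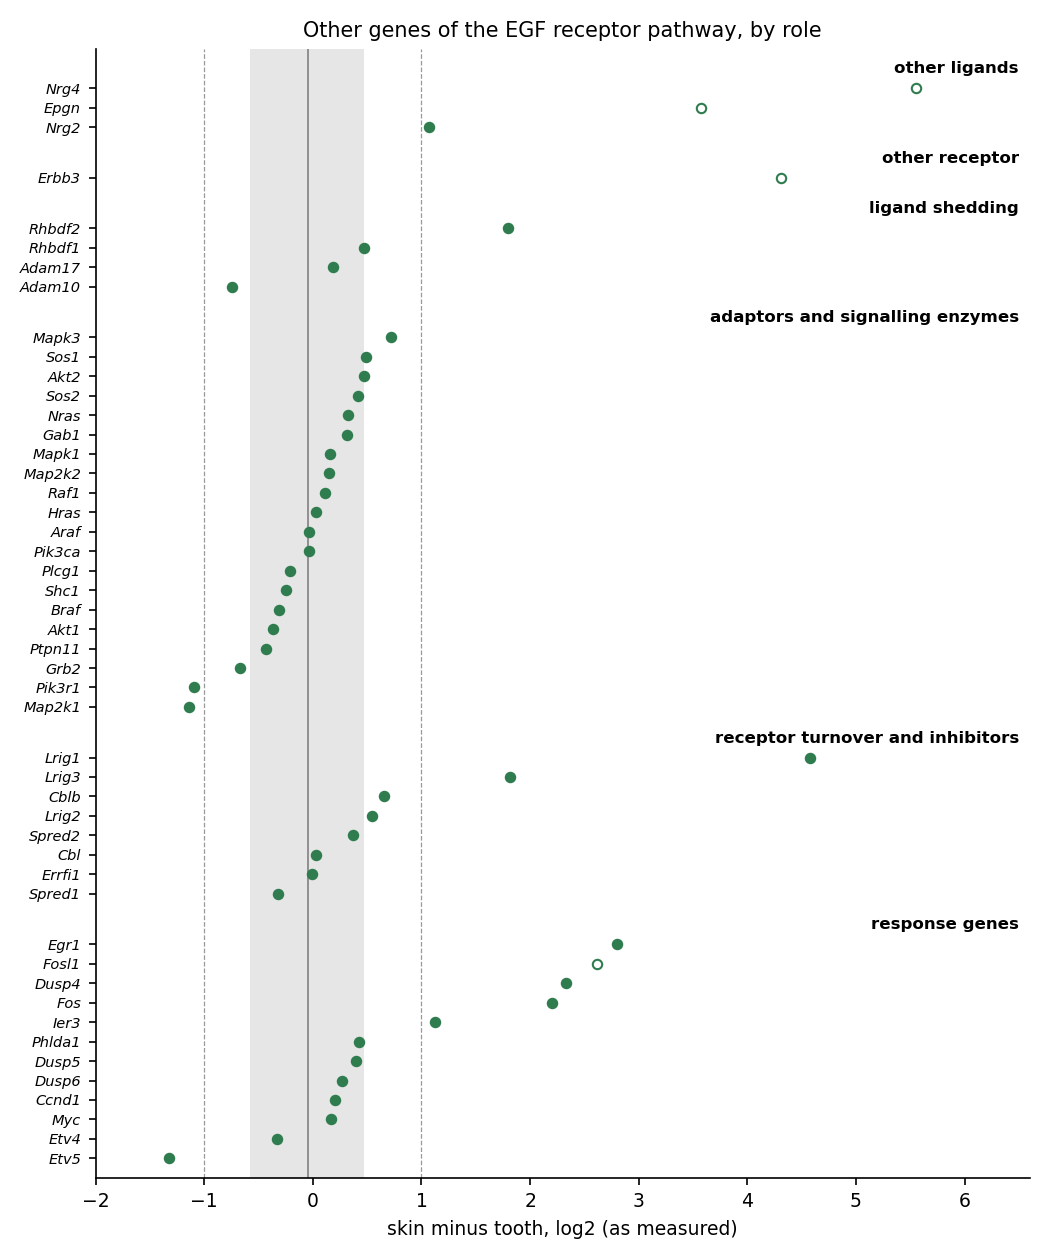
Difference skin minus tooth (log2, as measured) of 48 of the 49 other pathway genes above background, grouped by role; open points were well above background on 1 array only, the grey band holds the middle quartiles of all named genes with their median as a line, and dashed lines mark 2-fold. The adaptors and signalling enzymes cluster around 0 with 2 genes below -1, whereas the other ligands, Erbb3, Lrig1, Lrig3, Rhbdf2 and 5 response genes lie above 1.

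In mm9, further member probes lay at chr3:129380826-129380885 for Egf, chr6:86224838-86224897 for Tgfa, chr8:32928500-32928559 for Nrg1 and chr11:98298103-98298162 for Erbb2. The Egfr probes were at chr11:16813815-16813874 for variant 1 and at chr11:16783556-16783615 and chr11:16787172-16787231 for variant 2, in the order in which their values were given. The Erbb4 probes lay at chr1:68078805-68078864 and chr1:68086686-68086745, again in that order. Exon, intron or untranslated region under each probe was not analysed here. No probe pair of different genes of the family shared more than 10 of 60 consecutive bases on the same strand, in 202 pairs among 21 probes.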

How the data were processed

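Total RNA from 1 tooth and 1 skin sample was labelled with Cy3 and hybridised to Agilent arrays of 60-base probes, both on 1 slide. The authors deposited intensities per spot, which per the file headers came from Agilent Feature Extraction (version 10.7.3.1), with background subtracted by the software, and yes-or-no calls for outliers and for signal well above background were deposited with them. The study's methods name GeneSpring with a filter on weak entities and a percentile shift. The table of values that the authors deposited held the ratio of each intensity to a factor (431 in tooth, 274.5 in skin) and was used as an alternative.

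Outlier spots were left out (3 of 49 member spots in tooth and 2 of 49 in skin). Log2 values of the spots of a probe were averaged, and the 75th percentile over non-control probes of the array was subtracted. Detection of a probe required that call in over 50% of its spots. The probe with the highest mean stood for a gene, and differences were skin minus tooth. Where 1 array did not detect a gene, the fold was taken over the higher of the dim value and the lowest detected signal of that array. It was written as at least N-fold where the lowest detected signal was the higher. Counts and medians used dim values as measured. Symbols were updated by accession through RefSeq tables of GRCm38.p6 (12 of 13 member probes matched), and probe positions are those in the files (mm9). The software detected 56.7% of probes in tooth and 52.5% in skin, and 0 and 1 of 308 negative controls. The number of arrays limits the precision. Among probes with repeated spots the median SD was 0.08 in tooth (288 probes) and 0.09 in skin (273 probes), on the log2 scale. Scaling and differences were tested on simulated data with folds placed in bright detected probes only, so recovery for dim probes and bounds was not tested. Work was done in Python 3.11.15 with numpy 2.4.6 and pandas 2.3.3, and in R 4.3.3 with limma 3.58.1 for normexp (offset 50) only.

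Members, lists, the 2-fold threshold and alternatives were chosen with earlier results of these data known. All 10 members were to be named, with all other ligands and receptors and, in each other role, the genes beyond 2-fold, and further genes within 2-fold were named after their values were seen. The value of 1 pathway gene is not reported here, although it is included in the counts and medians. The alternatives were quantile, median and spike-in scaling, normexp, the mean over all probes of a gene, detection on both arrays, no filter, a lenient detection call and the authors' table. Keeping outlier spots and setting dim values at their bound were added after the data had been seen.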

Additional observations from a re-analysis of the deposited data

How the results depend on the processing

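No paired analysis was possible because each tissue had 1 array, and for the same reason no array could be left out. A value was taken to have moved when it changed by more than the software's error of the difference (median 0.37 over the members and 0.20 over the pathway list), and a count when it changed by over 1.5 times. The members' median of 1.08 moved to 0.46 with spike-in scaling. The count of members at least 2-fold higher in skin moved from 5 to 2 when detection on both arrays was required, since that leaves out Areg, Ereg and Btc. The count in tooth moved from 2 to 0 after normexp correction, to 1 with detection on both arrays and to 1 with dim values at their bound. For the pathway list, the median of 0.27 moved to 0.016 with a median shift and to -0.36 with spike-in scaling, and the count in tooth moved from 3 to 7 with spike-in scaling. Over all named genes, spike-in scaling gave 1573 in skin and 5639 in tooth, and normexp correction 1672 in tooth. Spike-in scaling and the median shift each lower all differences alike by construction. The offset of normexp by construction draws differences of dim probes toward 0. Changes with detection on both arrays or dim values at their bound follow from those rules, and the causes of the rest were not tested. Of 94 single values of the 9 members under the alternatives, all 94 kept their direction, 77 moved by less than their error and 17 by more. A bound was kept only where it lay toward the tissue with signal, so bounds could not change direction. Some of the 77 could not move. Settings that changed only the filter or the use of dim values returned a gene's main value by construction, as did the probe mean for genes with 1 probe. Egf after normexp correction (-0.10) gave no bound and was not counted. Of 161 values of 15 named pathway genes, all 161 kept their direction, 126 moved by less than their error, 35 moved by more, and 154 were at least 2-fold. These 15 genes were all beyond 2-fold in the main setting, so the last count largely repeats that choice. Here too, some values could not move, and bounds could not change direction. Dim signal limits Egf, Tgfa, the skin value of Nrg1 and the tooth values of Areg, Ereg and Btc. For these the difference is a bound or rests on signal near the background.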

Other observations

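Markers of skeletal muscle and most of those of fibroblasts also differed between the samples, whereas endothelium and macrophage markers were divided. All 5 skeletal muscle markers were at least 2-fold higher in skin (median difference 3.35, log2), with summed levels of 4.15 in tooth and 36.1 in skin. Of 4 fibroblast markers, 3 were at least 2-fold higher in tooth (median -2.46). They were Col1a1 (-3.17), Col1a2 (-2.50) and Pdgfra (-2.43), whereas Col3a1 differed by 0.13. The part of other cell types in these values was not tested. Of 4 endothelium markers 2 were at least 2-fold higher in tooth (median -0.83), and of 4 macrophage markers 1 was (median -0.11).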
